A study of Danio rerio with 24 samples.

Results

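Regenerating caudal fin of zebrafish larvae (Danio rerio, AB strain) at 3 days post amputation (dpa) was compared with regenerating fin at 1 dpa, on 3 Affymetrix zebrafish expression arrays a side, which are 6 of the 24 arrays of the series. The comparison took the arrays that the titles name as controls of these days, and it covered all 15502 probe sets that are not array controls. Caudal fins were amputated at 2 days post fertilization (dpf), so the larvae were 3 dpf old at 1 dpa and 5 dpf old at 3 dpa, and age rose together with time after amputation. Each replicate was a pool of 150 fins, and 100 ng of its RNA was labelled with a kit that amplifies RNA in repeated cycles. The fins at 3 dpa, and those at 2 dpa, came from larvae kept for 1 hr in water with the vehicle DMSO after amputation, whereas no vehicle was stated for fins at 1 dpa or for unamputated fins at 2 dpf. Whether the fins at 1 dpa had the same vehicle exposure is not given in the sources used here. Titles of the larval 2 and 3 dpa arrays name an adult and larval fin study. Those of the 1 dpa and unamputated larval arrays do not, and whether these sets were handled apart is not stated. Time and age, and vehicle or array set if they differed, cannot be told apart in this comparison. Nothing in the labels says whether the pools came from separate clutches. The p-values of the larval comparison rest on the spread between pools over all 12 larval arrays, not only the 6 compared.

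The larval caudal fin fold is a thin double sheet of epidermis with sparse mesenchyme, stiffened by collagenous fibres called actinotrichia, and the notochord, muscle and spinal cord of the tail end just in front of it. After amputation a wound epidermis closes the stump, and signals of the Fgf, Wnt, Bmp and activin families support the proliferation and outgrowth of the mesenchyme beneath it. The comparison of day 3 with day 1 spans the interval between wound closure and outgrowth. The series title gives the study's aim as comparing regeneration in adult and larval fins.

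The deposited values are ratios, each probe set having been divided by a reference of its own, so differences between arrays can be read and the absolute level of a gene cannot. For the same reason it could not be checked whether defining markers of the fin were present or absent. All values below are log2 of the deposited ratio. A probe set was called when the Benjamini-Hochberg adjusted p of limma's linear model was under 0.05 and the change was at least 1 on the log2 scale, which is a 2-fold change. "Rose" and "fell" are used for called changes, errors of changes are the model's standard error, and a gene with several probe sets was read from the probe set that varied most over the adult arrays.

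Of the 15502 probe sets, 1043 (6.73%) were called, 350 higher and 693 lower at 3 dpa. At an unadjusted limma p under 0.05, 4886 of the 15502 differed in either direction. That count is only a rough background for the unadjusted counts of lists below, which are of genes and by direction. Of the 8793 genes measured, 220 (2.50%) rose and 440 (5.00%) fell. The median change over all genes was 0.04. The 3 arrays of a day did not overlap those of the other day for 204 of the genes that rose and 433 of those that fell, against 30.8% of all genes tested. Calling on p and on a 2-fold change favours genes whose arrays do not overlap, so this difference is largely set by the call. Arrays at 1 dpa correlated with each other across probe sets at r between 0.793 and 0.902. At 3 dpa, replicates 1 and 2 correlated at 0.808, and replicate 3 correlated with them at only 0.638 and 0.629. Among the genes that rose, replicate 1 was the 1 dpa array nearest to day 3 in 154 of 220, and replicate 3 was the 3 dpa array nearest to day 1 in 128. Among the genes that fell, the same arrays were nearest in 272 and 194 of 440. The 2 arrays stood nearer to the other day than their replicates did, and the number of rises depended on them: 526 probe sets rose without 3 dpa replicate 3, and 676 rose when 1 dpa replicate 1 was left out as well, while 765 and 877 fell. Counts of a list without these arrays, or the range with each of the 6 arrays left out in turn, are given below for lists whose count of 3 or more moved by more than 1.5 times. The 18 hybridisation control probe sets averaged −0.10 to 0.14 on the 1 dpa arrays and −0.16 to 0.15 on the 3 dpa arrays.

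The largest rise belonged to tat, the tyrosine aminotransferase of amino acid breakdown, whose mammalian counterpart is a classical target of glucocorticoids. It stood at 0.03, −4.22 and −4.29 on the 3 arrays at 1 dpa and at 2.86, 2.51 and 2.68 at 3 dpa. The groups did not overlap, but replicate 1 at 1 dpa lay closer to the day 3 arrays than to the other arrays of its own day. The change was 5.51 ± 0.92 (limma adjusted p = 0.0021). The gene mb, which encodes the oxygen-binding protein myoglobin, stood at 0.17, −2.03 and −2.16 at 1 dpa and at 2.80, 2.76 and 1.2 at 3 dpa, a rise of 3.59 ± 0.57 (limma adjusted p = 0.0015). For ucp1, an uncoupling protein of the mitochondrial inner membrane, the values were 2.32, 0.70 and 0.92 at 1 dpa and 4.56, 4.27 and 4.56 at 3 dpa. It rose by 3.15 ± 0.53 (limma adjusted p = 0.0023), again with replicate 1 the highest of the 1 dpa arrays.

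Genes that act on the extracellular matrix were also among the 15 largest rises. The lysyl oxidase gene loxa, whose product cross-links collagen and elastin, stood at 1.41, −1.14 and −1.02 at 1 dpa and at 2.42, 2.68 and 2.59 at 3 dpa, a rise of 2.81 ± 0.52 (limma adjusted p = 0.0036). Its relative loxl2b went from −0.45, −1.84 and −1.86 to 0.95, 0.88 and 0.59, a rise of 2.19 ± 0.31. Both genes were above every 1 dpa array at 3 dpa, as the choice of the 15 required. The sulfotransferase gene chst2b, which modifies carbohydrate chains, rose by 2.29 ± 0.37, and ecrg4a, the precursor gene of a secreted peptide, by 3.01 ± 0.50. The smallest adjusted p of the 15 belonged to npr1b, a natriuretic peptide receptor that makes cyclic GMP. Its arrays read −0.58, 0.00 and 0.15 at 1 dpa and 2.18, 2.24 and 1.95 at 3 dpa (2.27 ± 0.18, limma adjusted p = 1.3e-05). The other members of the 15 were the urea transporter slc14a2 (2.92 ± 0.46), the interferon regulatory factor irf1b (2.68 ± 0.49), fam43b (2.45 ± 0.32), the sialidase neu3.2 (2.15 ± 0.30), the carbonic anhydrase-related gene ca10a (2.07 ± 0.41), the Wnt secretion factor wls (2.00 ± 0.25) and the monoglyceride lipase mgll (2.00 ± 0.36). The rise of wls was seen on 1 of its 3 probe sets, the other probe sets giving −0.38 and 0.32.

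**Figure D1:**
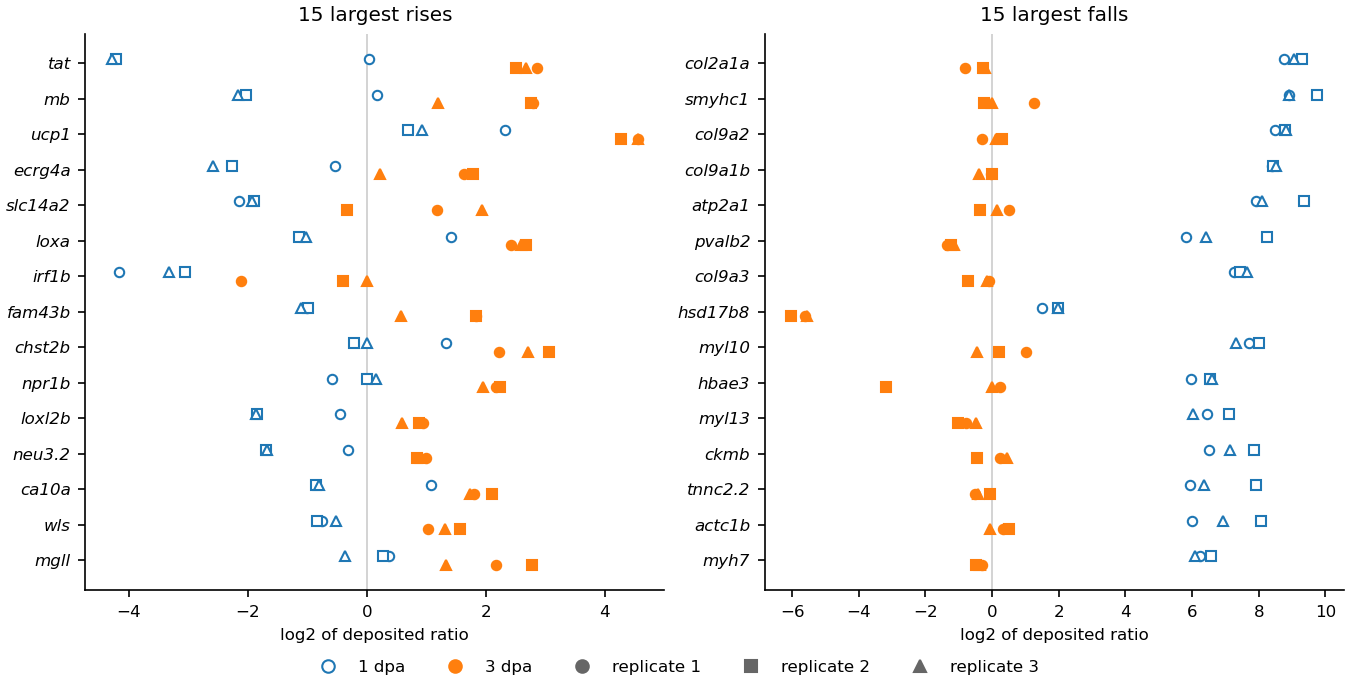
Log2 of the deposited ratio on each of the 6 arrays for the 15 largest rises (left) and the 15 largest falls (right), with 1 dpa as open blue and 3 dpa as filled orange symbols, and the symbol shape giving the replicate. Only called genes whose arrays do not overlap were taken, so the 2 days are separated in every gene shown by that choice. The falls span a wider range than the rises. In tat, mb, ucp1, ecrg4a, loxa, chst2b, loxl2b, neu3.2 and ca10a replicate 1 at 1 dpa lies toward day 3.

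The falls were far larger than the rises and were led by genes of notochord, cartilage and skeletal muscle. The type II collagen gene col2a1a, a main component of the notochord sheath and of cartilage, stood at 8.76, 9.29 and 9.05 at 1 dpa and at −0.81, −0.27 and −0.21 at 3 dpa. It fell by 9.47 ± 0.43 (limma adjusted p = 2.2e-07), and its level at 3 dpa (mean −0.43) lay beside those of the adult fin groups, −0.62 at 3 dpa and −0.73 without amputation. The type IX collagen genes col9a2, col9a1b and col9a3, partners of type II collagen in its fibrils, fell too, with changes of −8.65 ± 0.46, −8.59 ± 0.36 and −7.78 ± 0.32. All 4 collagen genes were high on every array at 1 dpa and near 0 on every array at 3 dpa.

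Of 27 notochord and cartilage genes measured, 10 fell, 3 rose and 14 were not called, with a median of −0.07. The shares of all genes were 5.00% lower and 2.50% higher. The members that fell further included shha, the Hedgehog ligand made by notochord and floor plate (−4.83 ± 0.36), tbxta, the notochord transcription factor Brachyury (−4.26 ± 0.26), and the cartilage gene cnmd (−2.73 ± 0.20). The count of rises was 1 to 3 with 1 array left out in turn. The 3 that rose were hapln1a, a link protein that ties hyaluronan to proteoglycans (1.66 ± 0.21), the mesenchymal transcription factor twist3 (1.38 ± 0.35) and sox9b (1.22 ± 0.37). These 3, and members that fell such as shha, are also expressed outside notochord and cartilage. Other probe sets of hapln1a gave smaller changes, between 0.01 and 0.90, and that of sox9b gave 0.05. The 14 that were not called ran from foxa2 (−0.70) to matn4 (0.77). Among them noto (0.08), col8a1a (−0.04), acanb (−0.07), matn1 (−0.01), ucmaa (−0.04) and sox9a (0.05) were nearly flat. The falls were thus those of part of the list. The genes tbxta and cnmd, and the members that were not called, were picked for mention after their values were seen.

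In the muscle list of 56 genes, 36 (64.3%) fell and 1 rose, beside 5.00% and 2.50% of all genes, and the median change was −2.80. The slow myosin gene smyhc1 stood at 8.91, 9.76 and 8.90 at 1 dpa and at 1.25, −0.25 and 0.00 at 3 dpa, a change of −8.86 ± 0.61 (limma adjusted p = 4.7e-06). The calcium pump gene of fast muscle, atp2a1, fell by 8.37 ± 0.60, the calcium buffer gene pvalb2 by 8.07 ± 1.1 and the creatine kinase gene ckmb by 7.09 ± 0.53. The contractile genes tnnc2.2, actc1b, myl10, myl13 and myh7 fell too, with changes between −7.40 and −6.69, although 2 of the 3 other probe sets of actc1b gave −0.33 and 0.06. Averaged over the list, each array read between 2.56 and 3.69 at 1 dpa and between −0.16 and −0.06 at 3 dpa. The only member that rose was mb, which therefore went the other way from the contractile genes. Near-identical members of the myosin, parvalbumin and troponin families can share array probes, and their single values are uncertain to that extent. In bulk fin tissue, fewer cells of a type and less RNA per cell cannot be told apart.

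Falls outnumbered rises among blood, vessel and nerve genes too. Of 23 erythrocyte genes, 11 (47.8%) fell and 0 rose (median −1.05), beside 5.00% of all genes lower and 2.50% higher. In this list 14 were lower and 1 higher at an unadjusted limma p under 0.05. The globin gene hbae3 stood at 5.98, 6.54 and 6.61 at 1 dpa and at 0.24, −3.19 and 0.00 at 3 dpa, a change of −7.36 ± 0.68, and its other probe set gave −6.92. The red cell water channel aqp1a.1, the globin hbbe2 and the anion exchanger slc4a1a fell by 5.36 ± 0.40, 4.79 ± 0.26 and 4.41 ± 0.47. The other globins on the list, hbbe3 (−1.05 ± 0.65), hbaa1 (−0.20 ± 0.19) and hbba2 (0.64 ± 0.19), were not called, nor was the erythroid factor gata1a (−0.20 ± 0.15). Of 25 endothelial genes, 6 fell and 1 rose, with a median of −0.13. The vascular growth factor receptor kdrl stood at −0.33, 0.07 and −0.27 at 1 dpa and at −3.55, −3.97 and −3.75 at 3 dpa, and plvapb, of the vessel wall's diaphragms, fell by 4.54 ± 0.24. The majority of endothelial genes, among them fli1 (−0.44), tie1 (0.58) and erg (0.05), were not called. Of 48 neuron and glia genes, 19 (39.6%) fell and 2 (4.17%) rose (median −0.69). Falls were seen in the synaptic gene cplx2a (−3.04 ± 0.42), the glial genes fabp7a (−3.01 ± 0.14) and gfap (−2.50 ± 0.16), and the neural progenitor factor sox2 (−2.36 ± 0.23). Of the 3 probe sets of sox2, the other 2 gave 0.07 and −0.60. The 2 genes of this list that rose were mbpb (1.02 ± 0.13) and zic2a (1.1 ± 0.17). Markers of organs away from the tail were nearly flat, with 1 of 38 genes of eye, gut and liver lower (the iron carrier gene tfa, −1.86 ± 0.43) and 0 higher, or 1 and 3 at an unadjusted limma p under 0.05.

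**Figure D2:**
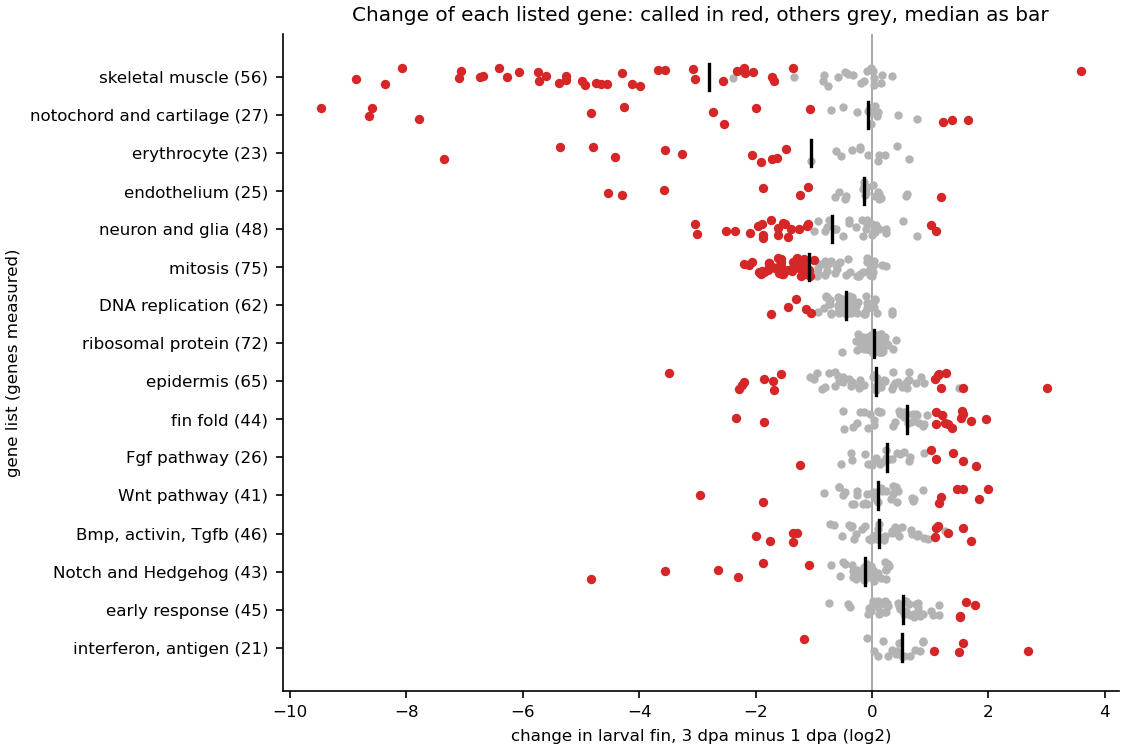
Change from 1 to 3 dpa (log2, horizontal axis) of each gene in 16 lists, with called genes in red, genes not called in grey and the list median as a black bar; the number of genes measured stands in brackets. Muscle, erythrocyte and mitosis genes have medians of −2.80, −1.05 and −1.08, ribosomal protein genes lie around 0.04, and the fin fold list has its median at 0.61.

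These falls were placed between day 1 and day 2. The muscle list averaged 1.94 to 3.23 on the unamputated arrays, 2.56 to 3.69 at 1 dpa, −0.21 to 0.10 at 2 dpa and −0.16 to −0.06 at 3 dpa. The notochord and cartilage list ran through 1.40 to 1.44, 1.47 to 1.54, −0.34 to 0.00 and −0.35 to −0.19 over the same groups. Across all 440 genes that fell, the 2 dpa mean lay nearer to the 3 dpa mean than to the 1 dpa mean in 422, and the unamputated mean lay nearer to 1 dpa in 367. Across the 220 genes that rose, the 2 dpa mean was nearer to 3 dpa in 202, and the unamputated mean was nearer to 1 dpa in 169 and nearer to 3 dpa in 51. The step between day 1 and day 2 is also where the stated vehicle exposure begins and where the wording of the array titles changes. The labels do not say whether fins were cut at the same distance from the notochord tip on each day. The part of cut position, age, vehicle and array set in these falls was not tested.

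**Figure D3:**
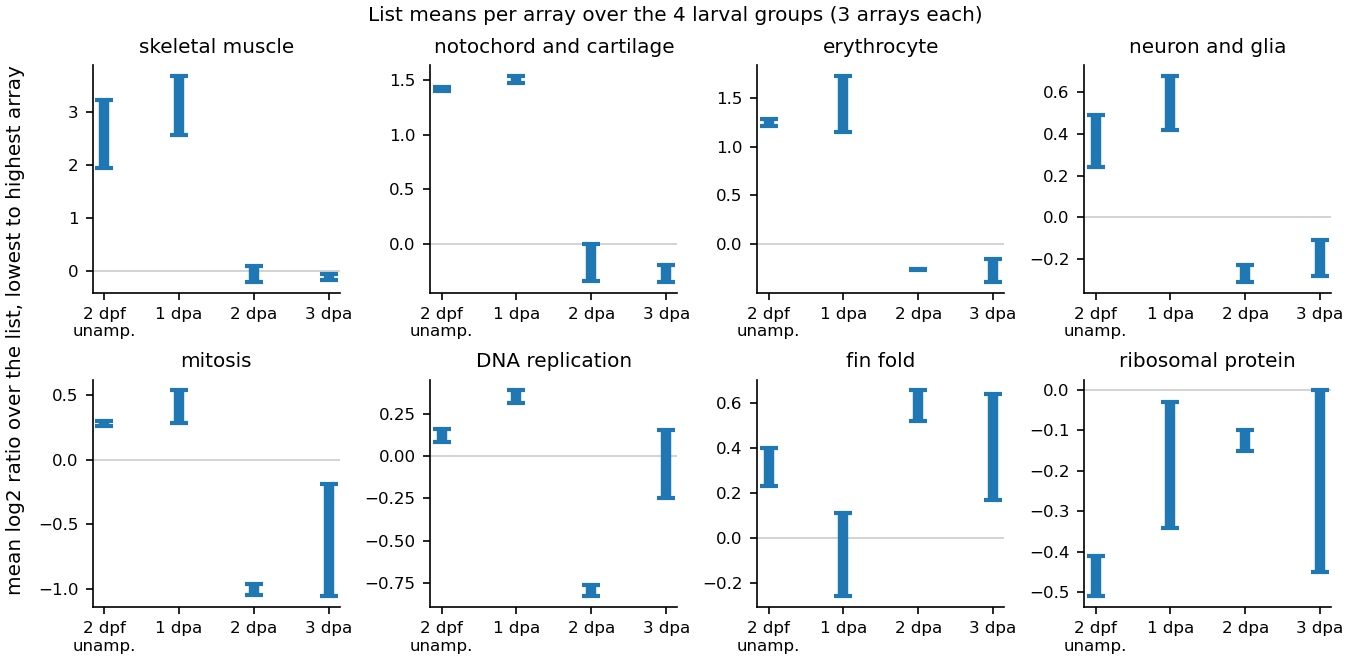
Mean log2 ratio over each of 8 gene lists in the unamputated fin at 2 dpf and at 1, 2 and 3 dpa, with the bar running from the lowest to the highest of the 3 arrays; each panel has its own scale. Muscle, notochord, erythrocyte and nerve lists step down between 1 and 2 dpa, while DNA replication is lowest at 2 dpa and stands between −0.25 and 0.15 at 3 dpa.

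Genes of cell division were lower at 3 dpa than at 1 dpa. In the list of 75 mitosis genes, 40 (53.3%, beside 5.00% of all genes) fell and 0 rose, with a median of −1.08. At an unadjusted limma p under 0.05, 59 were lower and 0 higher. The spindle gene tacc3 stood at 1.02, 1.46 and 1.09 at 1 dpa and at −1.61, −0.32 and −1.09 at 3 dpa, a change of −2.2 ± 0.28 (limma adjusted p = 0.00034). The spindle motor kif11 fell by 2.11 ± 0.30, the spindle factor nusap1 by 2.06 ± 0.42, and incenp, of the chromosomal passenger complex, by 1.94 ± 0.24, although the other probe set of incenp gave −0.07. In tacc3, kif11, nusap1 and incenp replicate 1 was the lowest and replicate 2 the highest of the 3 dpa arrays, so the size of the fall differed between the pools. The list averages of the 3 dpa arrays ran from −1.06 to −0.19, all below the 1 dpa arrays at 0.28 to 0.54. Without 3 dpa replicate 3 and 1 dpa replicate 1, 36 of the 75 fell and 0 rose.

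The machinery of DNA replication shifted less. Of 62 genes, 5 fell (8.06%, beside 5.00% of all genes) and 0 rose, with a median of −0.44. At an unadjusted limma p under 0.05, 37 were lower and 1 higher. The count of falls was 4 to 8 with 1 array left out in turn. The members that fell were dut, which keeps uracil out of DNA (−1.73 ± 0.25), the origin licensing factor cdt1 (−1.44 ± 0.27), the transcription factor e2f8 (−1.3 ± 0.29), the ribonucleotide reductase subunit rrm1 (−1.13 ± 0.13) and gins2, of the replicative helicase (−1.04). The helicase subunit mcm5 stood at 0.28, 0.09 and 0.08 at 1 dpa and at −0.46, 0.14 and 0.00 at 3 dpa, with the groups overlapping and a change of −0.26 ± 0.14 (limma adjusted p = 0.26). Its mean at 2 dpa was −1.81 ± 0.12 (SD, n = 3). The sliding clamp gene pcna had means of 0.63 ± 0.10 at 1 dpa, −1.41 ± 0.03 at 2 dpa and 0.06 ± 0.31 at 3 dpa (SD, n = 3). The change of pcna from 1 to 3 dpa was −0.57 ± 0.14 (limma adjusted p = 0.018), short of 2-fold. For both genes, named here after their values were seen, the lowest of the 3 means was that of day 2. Of 72 ribosomal protein genes limma called 0 in either direction, with 1 higher and 1 lower at an unadjusted p under 0.05, and the median of that list was 0.04.

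Several genes of the Fgf pathway rose, 5 of the 26 measured (19.2%, beside 2.50% of all genes), and 1 fell. The Fgf ligand genes fgf8a and fgf24 encode secreted growth factors, and fgf24 is made by the epidermis at the fin margin. fgf8a stood at 1.56, −0.14 and 0.00 at 1 dpa and at 2.48, 2.81 and 1.5 at 3 dpa. Its groups overlapped, because replicate 1 at 1 dpa exceeded replicate 3 at 3 dpa, and the rise was 1.79 ± 0.42 (limma adjusted p = 0.013). fgf24 rose by 1.56 ± 0.42 (limma adjusted p = 0.024), also with overlapping arrays. The Fgf feedback inhibitor spry4 rose by 1.39 ± 0.32, as did 2 further pathway genes, il17rd (1.1 ± 0.15), an inhibitor of Fgf signalling, and etv5a (1.02 ± 0.24), a transcription factor that Fgf induces, whose other probe set gave 0.10. The receptor gene fgfr4 fell by 1.23 ± 0.16. The other 20, including fgf3 (0.55), fgf10a (0.90) and dusp6 (0.48), were not called, and the median was 0.26. With 1 array left out in turn, 2 to 6 genes of this list rose.

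In the Bmp, activin and Tgf-beta list 6 of 46 genes (13%) rose and 5 (10.9%) fell, beside 2.50% and 5.00% of all genes. The median was 0.12, and the ligands were on both sides. bmp2b stood at −0.18, −1.24 and −1.64 at 1 dpa and at 0.94, 1.12 and −0.02 at 3 dpa, a rise of 1.70 ± 0.37 (limma adjusted p = 0.0091). bmp4 rose by 1.3 ± 0.29 and the activin subunit inhbaa by 1.57 ± 0.21, the latter on both of its probe sets (1.57 and 1.52). The Bmp feedback inhibitors smad6a (1.09 ± 0.09) and bambia (1.1 ± 0.16) and the ligand tgfb1a (1.14 ± 0.17) rose too. Members that fell were ccn2a (−2.0 ± 0.18) and thbs1b (−1.75 ± 0.25), matrix-associated proteins, the ligand bmp3 (−1.36 ± 0.10), id4 (−1.36 ± 0.20), and fsta, a follistatin that binds activin (−1.28 ± 0.13), whose other probe set gave −0.05. The ligands bmp2a (0.43), bmp5 (0.80), bmp6 (0.08), bmp7a (0.07) and bmp8a (−0.11) were not called. The rises of this list numbered 4 to 9 with 1 array left out in turn, and 10 without both arrays that stood apart.

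In the Wnt list 6 of 41 genes (14.6%) rose and 2 (4.88%) fell, beside 2.50% and 5.00% of all genes, with a median of 0.10. Without 3 dpa replicate 3 the falls numbered 4. The Wnt secretion factor wls rose as given above, dkk3b rose by 1.84 ± 0.24 and the ligand gene wnt5b by 1.19 ± 0.34. The secreted Wnt inhibitor dkk1b rose by 1.57 ± 0.32, the receptor fzd9b by 1.46 ± 0.23 and the Wnt deacylase notum1b by 1.16 ± 0.18. The ligand wnt4b fell by 2.96 ± 0.17 and the Wnt-binding inhibitor wif1 by 1.87 ± 0.10. Inhibitors thus stood on both sides. The effectors lef1 (−0.47) and axin2 (0.70) were not called.

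In the list of 44 genes of fin fold, its mesenchyme and actinotrichia, 11 (25%) rose and 2 fell, beside 2.50% and 5.00% of all genes, and the median was 0.61. The homeobox gene msx1b, expressed in fin mesenchyme and blastema, stood at −0.51, −0.82 and −0.74 at 1 dpa and at 0.55, 0.82 and 1.21 at 3 dpa, a rise of 1.55 ± 0.19 (limma adjusted p = 0.0003). The homogentisate dioxygenase gene hgd, a marker of fin mesenchyme, rose by 1.96 ± 0.25, and the matrix gene fbln1 by 1.53 ± 0.26, although the other probe set of fbln1 gave 0.04. Distal-less genes of the fin fold rose as well, with dlx3b at 1.25 ± 0.22, dlx2b at 1.2 ± 0.26 and dlx6a at 1.1 ± 0.31. The members that fell were the mesenchymal cadherin gene cdh11 (−2.33 ± 0.22) and tfa. The rises of fgf24, bmp2b, bmp4, twist3, hoxd13a and msx1b, and the fall of tfa, are also counted in other lists. The counts of these lists are therefore not separate results. The actinodin genes and1 and and2, which encode structural proteins of actinotrichia, changed by 0.49 ± 0.10 and 0.62 ± 0.12, short of 2-fold, with limma adjusted p of 0.007 and 0.004. Without the 2 arrays that stood apart, 16 of the 44 rose and 2 fell. With 1 array left out in turn the rises ranged from 5, without 3 dpa replicate 2, to 15, without 3 dpa replicate 3. Genes of the Fgf, Bmp, Wnt and fin fold lists beyond 4 a list were chosen for mention after their values were seen.

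The 17 genes of the Fgf, Bmp and Wnt lists that rose were set beside unamputated fin. The lowest of the 4 larval group means was at 1 dpa for 16 of them and in unamputated fin for 1, dkk3b. Choosing genes that rose from 1 to 3 dpa excludes a lowest mean at 3 dpa. This count is therefore in part set by that choice. The 1 dpa and unamputated means were close in some genes, as in wls (−0.70 and −0.67) and bambia (0.11 and 0.19). In 8 of the 17 the unamputated mean lay nearer to 3 dpa than to 1 dpa, and in 9 it lay nearer to 1 dpa. fgf8a had means of 2.32 ± 0.14 in unamputated fin, 0.47 ± 0.95 at 1 dpa, 2.81 ± 0.06 at 2 dpa and 2.26 ± 0.68 at 3 dpa (SD, n = 3). bmp4 ran through 1.74 ± 0.23, 0.16 ± 0.41, 1.94 ± 0.11 and 1.46 ± 0.64, and dkk1b through 1.48 ± 0.25, 0.23 ± 0.61, 1.64 ± 0.17 and 1.79 ± 0.58. For fgf8a, bmp4 and dkk1b the level at 3 dpa lay within 1 SD of 3 dpa of the unamputated mean. A different course was seen in wls, whose means ran through −0.67, −0.70, 1.45 and 1.3 in the same order, in dkk3b, with −3.05, −1.37, 0.57 and 0.47, and in the matrix gene loxa, with −1.14, −0.25, 1.99 and 2.56.

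**Figure D4:**
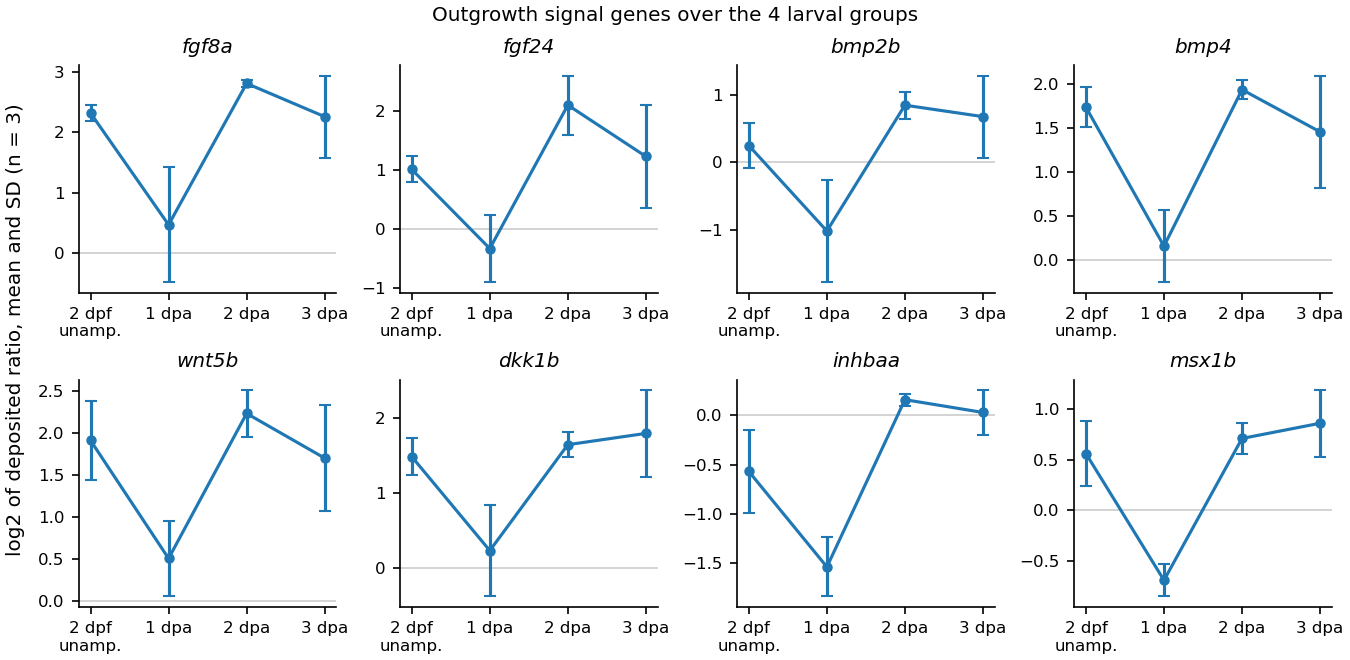
Mean log2 ratio with SD (n = 3 arrays) of 8 genes that rose, chosen after their values were seen, in unamputated fin at 2 dpf and at 1, 2 and 3 dpa; each panel has its own scale. All 8 genes shown have their lowest mean at 1 dpa, and the means at 2 and 3 dpa are near or above that of unamputated fin. In all 8 the unamputated mean lies nearer to 3 dpa than to 1 dpa. The 9 risen genes of the Fgf, Bmp and Wnt lists with the unamputated mean nearer to 1 dpa, among them wls and dkk3b, are not shown.

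In the Notch and Hedgehog list 6 of 43 genes (14%, beside 5.00% of all genes) fell, 0 rose and 37 were not called, with a median of −0.11. At an unadjusted limma p under 0.05, 10 were lower and 1 higher, beside 4886 of all 15502 probe sets in either direction. The Hedgehog ligand gene shha stood at 4.35, 4.61 and 3.93 at 1 dpa and at −1.35, −0.13 and −0.12 at 3 dpa, and the Hedgehog-binding inhibitor hhip fell by 3.55 ± 0.27. The Notch ligands dlb, dla and jag2b fell by 2.64 ± 0.39, 1.87 ± 0.23 and 1.08 ± 0.17, and the Notch target hey1 by 2.30 ± 0.17. The other probe set of dlb gave 0.01. Notochord and nerve express several of these genes, falls outnumbered rises in both of those lists between the same days, and their part in this change was not tested. Among 42 Hox cluster genes, a list added after the values were seen, 4 fell (9.52%), 1 rose (2.38%) and 37 were not called. The shares of all genes were 5.00% lower and 2.50% higher. The genes hoxb8a, hoxb3a, hoxa2b and hoxb9a fell by 2.93 ± 0.24, 2.26 ± 0.19, 1.26 ± 0.20 and 1.1 ± 0.21, and hoxd13a rose by 1.11 ± 0.33 with arrays that overlapped between the days. The other probe sets of hoxb8a gave 0.05 and −0.40, and that of hoxb9a gave −0.19. With 1 array left out in turn the count of rises was 0 to 1.

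Of 65 epidermal genes 7 (10.8%) rose, 8 (12.3%) fell and 50 were not called, beside 2.50% and 5.00% of all genes, and the median was 0.07. With 1 array left out in turn 4 to 10 rose, and without both arrays that stood apart 11 rose and 10 fell. The keratin gene krt1-19e stood at 2.36, 1.76 and 1.57 at 1 dpa and at −2.37, −2.15 and −0.25 at 3 dpa, a change of −3.49 ± 0.46. The transglutaminase gene tgm1l4 and the keratin krt91 fell by 2.29 ± 0.47 and 2.23 ± 0.45. The 7 that rose were ecrg4a (3.01), fgf24 (1.56), soul2 (1.27), scel (1.19), cldn23.1 (1.15), zgc:111983 (1.13) and cldnf (1.08). In krt1-19e, tgm1l4 and krt91 replicate 3 at 3 dpa was the highest array of its day. General epidermal genes such as the keratin krt4 (−0.63 ± 0.13) and the basal layer factor tp63 (0.45 ± 0.21) were not called. In the matrix list, 4 of 43 genes (9.30%) rose and 5 (11.6%) fell, and without 1 dpa replicate 1, alone or with 3 dpa replicate 3, 8 rose and 6 fell. The rises of the matrix list included loxa and loxl2b, given above. The tenascin family gene tnn fell by 5.51 ± 0.28, with 0.51, 1.77 and 0.70 at 1 dpa and −4.56, −4.73 and −4.26 at 3 dpa, although its other probe set gave −0.22. The collagen gene col1a2 fell by 1.66 ± 0.11, and by 2.07 on its other probe set.

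Immune and early response lists were read beside 2.50% of all genes higher and 5.00% lower. The chemokine cxcl12b, which guides migrating cells, stood at 1.65, 3.63 and 3.03 at 1 dpa and at −1.90, −1.99 and −2.15 at 3 dpa, a change of −4.78 ± 0.37 (limma adjusted p = 9.7e-06), and cxcl12a fell by 1.73 ± 0.34. The receptor gene cxcr4a rose by 1.19 ± 0.26. In the interferon and antigen presentation list 4 of 21 genes rose, irf1b, the immunoproteasome subunit psmb10 (1.56 ± 0.20), the guanylate-binding gene gbp1 (1.5 ± 0.15) and mhc1zba (1.07 ± 0.14), and b2m fell by 1.16 ± 0.32. Of 45 early response genes 4 (8.89%) rose and 0 fell, with a median of 0.53 for the list. The 4 were dusp1 (1.78 ± 0.30), klf2a (1.62 ± 0.29), fosab (1.52 ± 0.35) and egr1 (1.51 ± 0.37, and 0.01 on its other probe set). At an unadjusted limma p under 0.05, 20 of the list were higher and 2 lower. Without 3 dpa replicate 3, or without both arrays that stood apart, 12 of these 45 rose, and without 1 dpa replicate 1 alone 7. Macrophage genes gave 2 rises (5.56%) and 1 fall (2.78%) among 36, and without both arrays that stood apart 5 rises and 8 falls. With 1 array left out in turn the rises ranged from 0 to 5 and the falls from 0 to 9. In the neutrophil list of 15, 1 gene rose and 1 fell (6.67% each). The lysozyme gene lyz fell by 2.54 ± 0.70 and the myeloid factor cebpa rose by 1.45 ± 0.25. With 1 array left out in turn 1 to 3 genes of the list rose and 0 to 3 fell.

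Growth factor and metabolic genes were called in both directions, beside 2.50% of all genes higher and 5.00% lower. Of 22 genes of the insulin-like growth factor and growth hormone axis, igf2b (1.56 ± 0.34), the growth hormone receptor ghrb (1.66 ± 0.16) and stc2a (1.2 ± 0.28) rose, and igf2a fell by 1.44 ± 0.21, so that the duplicated igf2 genes went opposite ways. igf2b stood at −1.37, −1.45 and −1.27 at 1 dpa and at −0.64, 0.50 and 0.73 at 3 dpa, and igf2a at 0.25, 0.71 and 0.45 and then at −0.82, −1.35 and −0.74. Neither gene's groups overlapped. Without both arrays that stood apart 6 genes of this list rose. In the glucocorticoid and fasting list of 37, tat, dusp1 and the pyruvate dehydrogenase kinase pdk4 (1.33 ± 0.13) rose, and the muscle ubiquitin ligases trim63a and trim63b and the cell cycle inhibitor cdkn1ca fell. The 3 rises became 8 without 3 dpa replicate 3, 6 without 1 dpa replicate 1 and 11 without both, with 2 falls each time. The respiratory chain list had 2 falls (2.33%, below the share of all genes) and 0 rises among 86 genes and a median of −0.36. At an unadjusted limma p under 0.05, 35 of them were lower and 2 higher. With 1 array left out in turn 1 to 5 fell.

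The same days were also compared in adult fins, in pools of 10 male fish injected with vehicle liposomes after amputation, on 3 arrays at 1 dpa and 3 at 3 dpa that share no sample with the larval arrays. Adult RNA was labelled from 2.5 µg with a kit of a single amplification cycle, so age, kit and vehicle cannot be told apart between the ages. The adult array titles name an adult and larval fin study on both days, whereas in larvae the title wording changes between 1 and 3 dpa. In adults 205 genes (2.33%) rose and 42 (0.478%) fell from 1 to 3 dpa. Of these, 37 also rose in larvae, which is 16.8% of the larval and 18% of the adult rises. In the other direction 4 genes fell at both ages, 0.909% of the larval and 9.52% of the adult falls. Fell in larvae and rose in adults applied to 27 genes, 6.14% of the larval falls and 13.2% of the adult rises. The reverse applied to 2, 0.909% of the larval rises and 4.76% of the adult falls. Over all genes, 2.50% rose and 5.00% fell in larvae.

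Genes that rose at both ages included several of the largest larval rises. ecrg4a rose by 4.21 in adults and 3.01 in larvae, loxa by 2.46 and 2.81, npr1b by 2.44 and 2.27, neu3.2 by 2.17 and 2.15, and loxl2b by 1.79 and 2.19. Fin mesenchyme genes hgd (3.04 in adults), twist3 (2.28) and msx1b (1.38) rose at both ages as well. For ecrg4a, loxa, npr1b, neu3.2, loxl2b, hgd, twist3 and msx1b the difference between the ages did not pass the threshold, with limma adjusted p between 0.21 and 0.99.

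The difference between the adult and the larval step was called for 1156 probe sets, 877 with the adult change above the larval and 279 below. In genes these were 529 (6.02%) and 178 (2.02%). With quantile normalization the split over probe sets moved to 1028 above and 556 below. The 10 genes with the largest difference were hsd17b8, col2a1a, smyhc1, col9a2, col9a1b, atp2a1, pvalb2, col9a3, myl13 and tnnc2.2, all lower at 3 dpa in larvae. Except for hsd17b8, these genes had adult changes between −0.29 and 0.18, so the difference was the larval fall. hsd17b8, named on the array as a hydroxysteroid dehydrogenase gene, stood at 1.51, 1.98 and 1.99 at 1 dpa and at −5.60, −6.03 and −5.55 at 3 dpa in larvae, and rose by 4.45 in adults. Its other probe set gave −0.36 in larvae, and the identity of the changing transcript is therefore uncertain. Other genes with opposite changes were fabp7a (−3.01 in larvae, 3.51 in adults) and shha (−4.83 and 2.19).

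**Figure D5:**
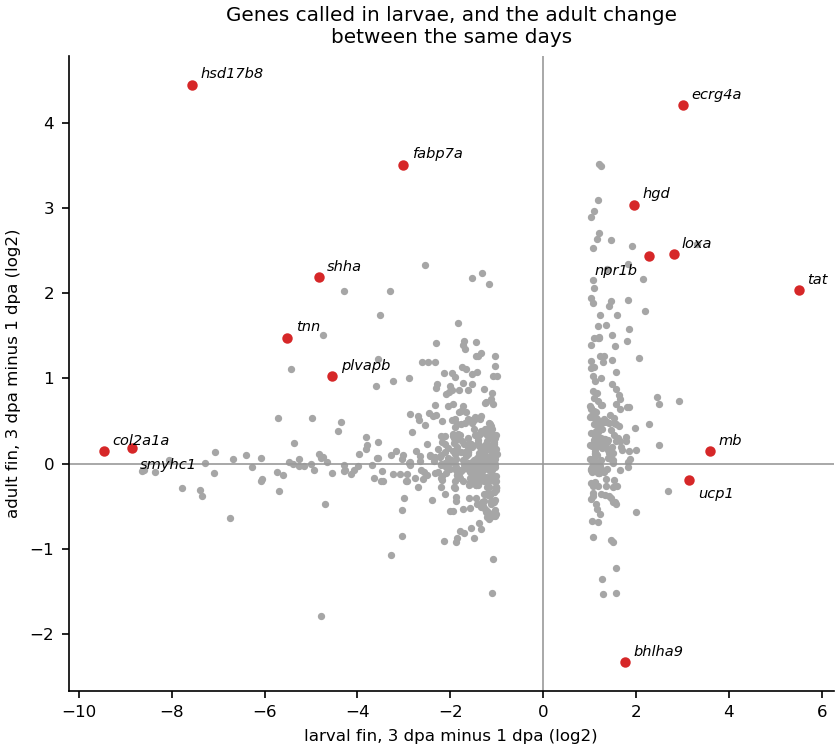
Change from 1 to 3 dpa in larval fin (horizontal axis) and in adult fin (vertical axis), both log2, for the 660 genes called in larvae. Some of the genes named in the text are labelled in red, and all others are grey. The empty band around 0 on the horizontal axis comes from the 2-fold limit; col2a1a and smyhc1 lie far left near 0 on the adult axis, and ecrg4a, loxa, npr1b and hgd lie above 0 on both.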

How the data were processed

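RNA of zebrafish caudal fin was measured on 24 Affymetrix arrays, 8 groups of 3. Per the submitters' processing notes the authors used GCRMA, for which no version is given. The deposited values are ratios on a linear scale, each probe set over a reference that the sources used here do not name. They were taken to log2 and otherwise used as deposited. Of 15502 probe sets that are not controls, 10795 matched 1 gene symbol, 135 several and 4572 none, giving 8793 genes, of which 1539 had more than 1 probe set. Precision rests on the number of arrays, as there are no counts. Limma (version 3.58.1, R 4.3.3) was fitted to the 12 larval arrays with a mean per group; the difference between ages was fitted to all 24, and the adult step to the 12 adult arrays. On data simulated for the larval comparison with 15502 probe sets, 104 of 107 changes of 2 and 93 of 93 changes of 3 on the log2 scale were recovered, with 1 false call. The simulated noise was independent between arrays, with the same spread on every array, and no change near the 2-fold limit was drawn. Recovery with arrays that stand apart, as in these data, was therefore not measured. Replicates were numbered from titles, since all 1 dpa source names read replicate 1.

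Named genes were the 15 largest rises and falls with non-overlapping arrays and the 10 largest differences between ages, passing over placeholder symbols. Up to 4 called genes of each of 40 lists were also named, by size of change. Some genes belong to several lists and are counted in each. The 40 include the Hox list, added after the values were seen. The comparison, the lists and the genes were chosen with earlier results of these data known.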

Additional observations from a re-analysis of the deposited data

Results flagged for a closer look

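The step from 1 to 3 dpa differed between adult and larval fin for 1156 probe sets by the test of the difference itself in limma's fit to all 24 arrays (adjusted p under 0.05 and at least 2-fold). The adult change lay above the larval change by 12.01 on the log2 scale for hsd17b8, 9.62 for col2a1a, 9.04 for smyhc1, 8.56 for col9a2, 8.51 for col9a1b, 8.27 for atp2a1, 8.11 for pvalb2, 7.49 for col9a3, 7.30 for myl13 and 7.21 for tnnc2.2. On the other side, 5 genes chosen after their values were seen had the adult change furthest below the larval change. They were bhlha9 (−4.10), gda (−3.80), spint1b (−3.48), mb (−3.44) and ucp1 (−3.34). Of these, bhlha9, mb and ucp1 rose in larvae, while gda changed by 0.05 in larvae and −3.75 in adults. In spint1b neither step was called (1.5 in larvae, −1.98 in adults). Age, labelling kit, RNA input and vehicle differ together between the sides of this test and cannot be told apart. The wording of the array titles also changes between the larval days and not between the adult days. Its part was not tested.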

How the results depend on the processing

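The called probe sets numbered 867 to 1291 (278 to 526 higher, 589 to 814 lower) when each replicate was left out in turn, the highest count of rises being without 3 dpa replicate 3. With both arrays that stood apart left out, an alternative chosen after seeing the data, 676 were higher. Probe sets above the median mean gave 646 (219 higher, 427 lower), no minimum fold 2935 (1436 and 1499), and only the 6 arrays of both days 762 (222 and 540). For the difference between ages the leave-one-out range was 950 to 1342 (732 to 944 adult above, 218 to 398 below). Probe sets above the median mean gave 668 (505 and 163), the 12 arrays of the 4 groups 770 (141 below), quantile normalization 556 below and no minimum fold 538 below. Of the 1310 listed genes 241 were called (66 higher, 175 lower), and 205 to 276 (48 to 101, 154 to 194) with a replicate left out, 117 higher without both arrays, 37 higher with only the 6 arrays, and 143 (36 and 107) above the median mean. The cause of these shifts was not tested, apart from the fewer probe sets or arrays that some settings use.

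Read from the probe set with the highest mean, wls reversed to −0.38. Among the 122 named genes the other settings reversed none, with 67 of them measured above the median mean and the mean of a gene's probe sets not run gene by gene, and the calls lost over the settings that held all 122 ranged from 0 with values under 0.1 raised to 0.1 to 32 with only the 6 arrays. Same-numbered arrays of the 2 days deviated together at r = 0.016, 0.097 and 0.197. Replicate 1 at 1 dpa correlated better with replicate 2 at 3 dpa (0.071), whereas replicates 2 and 3 at 1 dpa correlated best with their own numbers. The result was mixed, and the numbers were not taken as pairs. With a replicate block 1060 probe sets were called, 364 higher and 696 lower, and 248 listed genes.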

Other observations

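Counts of calls between 1 and 3 dpa in larval fin follow for the gene lists not described above, beside 2.50% of all genes higher and 5.00% lower. Most of these counts are small and several moved by more than 1.5 times when 1 array was left out. Of 41 blastema genes 5 rose (12.2%) and 1 fell (2.44%), with 1 array left out 4 to 12 rose and 1 to 3 fell, and without both arrays that stood apart 10 rose and 3 fell. Of 32 matrix proteases and inhibitors 3 rose, mmp14a (1.14), the protease inhibitor gene serpine2 (1.11) and timp2a (1.03), and 0 fell, but 3 fell without 1 dpa replicate 1 and 5 rose without 3 dpa replicate 3. Of 33 clock genes 2 rose, nr1d2b (1.07, and 0.19 on its other probe set) and cry1b (1.03), and 0 fell. At an unadjusted limma p under 0.05 those lists had 3 and 2 genes lower. Of 52 chaperone and folding genes 2 rose, hsp70.3 (1.57) and chac1 (1.45, and 0.13 on its other probe set), and 2 fell, hsp90aa1.1 (−1.71), which the muscle list also holds, and hspb8 (−1.33). Of 40 inflammation genes 5 rose (12.5%) and 3 fell (7.5%), and without both arrays that stood apart 8 rose and 5 fell. Of 48 lipid and sterol genes 1 rose and 3 fell, and of 29 complement and coagulation genes 1 rose and 1 fell, or 4 and 1 without both arrays. Bone had 1 rise and 1 fall among 20 genes. Of 48 proteasome genes psmb10 rose, and of 9 genes of the aryl hydrocarbon receptor pathway sox9b rose. Falls without rises were 3 of 19 ionocyte and mucous cell genes, 2 of 34 oxidative stress genes, and 1 each of 26 retinoic acid, 16 pigment and 13 lateral line genes. Of 7 hatching gland genes limma called 0, with 1 higher and 1 lower at an unadjusted p under 0.05.

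The detoxification gene cyp1a, picked after its values were seen, differed more between the 3 dpa arrays than between the days. It stood at −1.54, 0.51 and 0.58 at 1 dpa and at −2.87, −4.37 and −0.47 at 3 dpa, and its change of −2.42 ± 0.86 was not called (limma adjusted p = 0.076). The actinodin genes and1 and and2 had small larval steps (0.49 and 0.62) beside adult steps of 6.33 and 7.81.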
